A study of Mus musculus with 2 samples.

Results

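The uninjured optic nerve library held 857 barcodes typed as oligodendrocytes, and 247 of them (28.8%) had a total below 1500 UMIs. A UMI is a tag that counts 1 captured RNA molecule once, and a barcode stands for 1 droplet. These 247 shallow barcodes are described here, out of 1369 oligodendrocyte lineage barcodes in both libraries. They were chosen by a measured value, the UMI total, together with the cell type given by the study, so their low totals and their oligodendrocyte type are descriptions and were not tested. They were compared with the 610 well-covered uninjured oligodendrocytes of 1500 UMIs or more, and with the 155 injured oligodendrocytes under 1500 UMIs, out of 293 (52.9%).

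Both libraries came from wildtype mice of the 129S1/SvlmJ strain, 1 from uninjured optic nerves and 1 from the site of an optic nerve crush (ONC), with 5 nerves pooled per condition and 6000 cells loaded on the 10x Chromium system (v2 chemistry). By the study's methods the crush was made at 8 weeks of age and tissue was taken 2 weeks later, at 10 weeks. The labels instead state 56 days for both samples, and both carry the post-crush time as their treatment, so the uninjured library was assigned by its title. The labels and the design give both sexes, but Xist, the RNA that coats the inactive X chromosome of female cells, had 1 UMI in all uninjured and 0 UMIs in all injured lineage barcodes, while the Y-linked gene Ddx3y had 496 and 249. There is 1 library per condition, so no p-values were computed and a difference between the libraries cannot be set against a spread between replicates. Every interval is at 95% and covers counting error only, exact Poisson for levels, exact conditional for ratios and exact binomial for shares. Barcodes of 1 library are not replicates, and these intervals do not cover the spread between them.

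Oligodendrocytes wrap axons of the central nervous system in myelin, and their RNA is spread over unlike places. Malat1 and Neat1 are long noncoding RNAs that stay in the nucleus, Malat1 in nuclear speckles and Neat1 in paraspeckles. Mbp mRNA, which encodes myelin basic protein, is carried along the processes and translated near the sheath. Mitochondrially encoded mRNAs remain in the organelle, and ribosomal protein mRNAs are cytoplasmic.

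The 10x chemistry primes reverse transcription with oligo(dT). The 2 nuclear RNAs on which the comparison turns are neighbours on chromosome 19 and are read from the minus strand (GRCm38, GENCODE vM21 annotation). Malat1 (ENSMUSG00000092341, 5795690 to 5802672) is annotated as a single exon, and the cell makes its 3′ end by cleavage rather than by adding a poly(A) tail. Its longest run of A, 12 bases, lies at positions 6674 to 6685 of the 6983-base transcript. Neat1 (ENSMUSG00000092274, 5824708 to 5845478) has a longest run of 7 bases at positions 9539 to 9545 of its 20771-base form. The windows below show the longest run of A, in capitals, of each annotated GENCODE transcript, a possible site for oligo(dT).
Malat1, chr19:5795968-5796019, minus strand: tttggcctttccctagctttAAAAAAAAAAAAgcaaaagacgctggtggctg
Neat1, chr19:5835914-5835960, minus strand: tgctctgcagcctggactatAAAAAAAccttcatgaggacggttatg
A run of A as long as that of Malat1 was present in the longest annotated transcript of 15.7% of the 1883 compared genes with a transcript, and a run as long as that of Neat1 in 51.4%. The search was for A on the transcript strand and in the longest annotated transcript only, so the ends of shorter forms were not looked at. Priming at these runs, or at a poly(A) tail where an RNA has one, was not tested.

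The shallow barcodes had 291 to 1495 UMIs (median 851) and 211 to 967 genes (median 580), and together held 223029 UMIs. The well-covered barcodes had a median of 4532 UMIs and together held 3926346, of which the 203 barcodes of 8000 UMIs or more gave 2437704. The injured shallow barcodes started higher, at 502 UMIs, had a median of 698 and together held 117798. No barcode sequence was shared between the libraries, and doublets were not called here; the study's stated measure against them was its upper limit on UMIs. Thinned to 500 UMIs, the shallow barcodes had a median of 356 genes, against 346 in well-covered and 277 in injured shallow barcodes, with 19 shallow barcodes left out because they held fewer.

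The levels of type markers are given as a description, beside those of oligodendrocyte precursor cells (OPCs), since the study's typing drew on the RNA of the same barcodes. Mbp was present in both types, with 14.2 UMIs per shallow barcode and 8.62 per OPC barcode and a UMI in 100% and 93.1% of them. Of the 247 shallow barcodes, 239 had at least 5 of 9 oligodendrocyte markers. Mag, which encodes an adhesion protein on the myelin membrane that faces the axon, was found in 84.2% of shallow barcodes (interval 79.1% to 88.5%) and in 12.1% of OPC barcodes (4.99% to 23.3%), which were deeper, with a median of 2290 UMIs against 851. At 500 UMIs per barcode, Mag was found in 77.2% of shallow, 83.4% of well-covered and 8.93% of OPC barcodes. Pdgfra, the growth factor receptor that defines OPCs, was found in 1.21% of shallow barcodes.

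Malat1 varied widely among the shallow barcodes. Its share of a barcode's UMIs ran from 0% to 38.8% (median 3.06%) in shallow barcodes, from 0% to 39.1% (median 6.07%) in well-covered barcodes and from 0% to 12.3% (median 0.198%) in injured shallow barcodes. The ranges of both uninjured classes overlapped almost fully. In summed UMIs, Malat1 stood at 71901 CPM (UMIs of a gene per 1000000 UMIs of the class) in the shallow and 60382 CPM in the well-covered class, a ratio of 1.19 (1.17 to 1.21). The direction turned with the way of averaging. The ratio was 0.822 when each barcode had equal weight, and 0.690 with the limit at 1000 UMIs. It was 0.854 against well-covered barcodes under 8000 UMIs and 0.961 against well-covered barcodes thinned to the depths of the shallow ones.

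**Figure D1:**
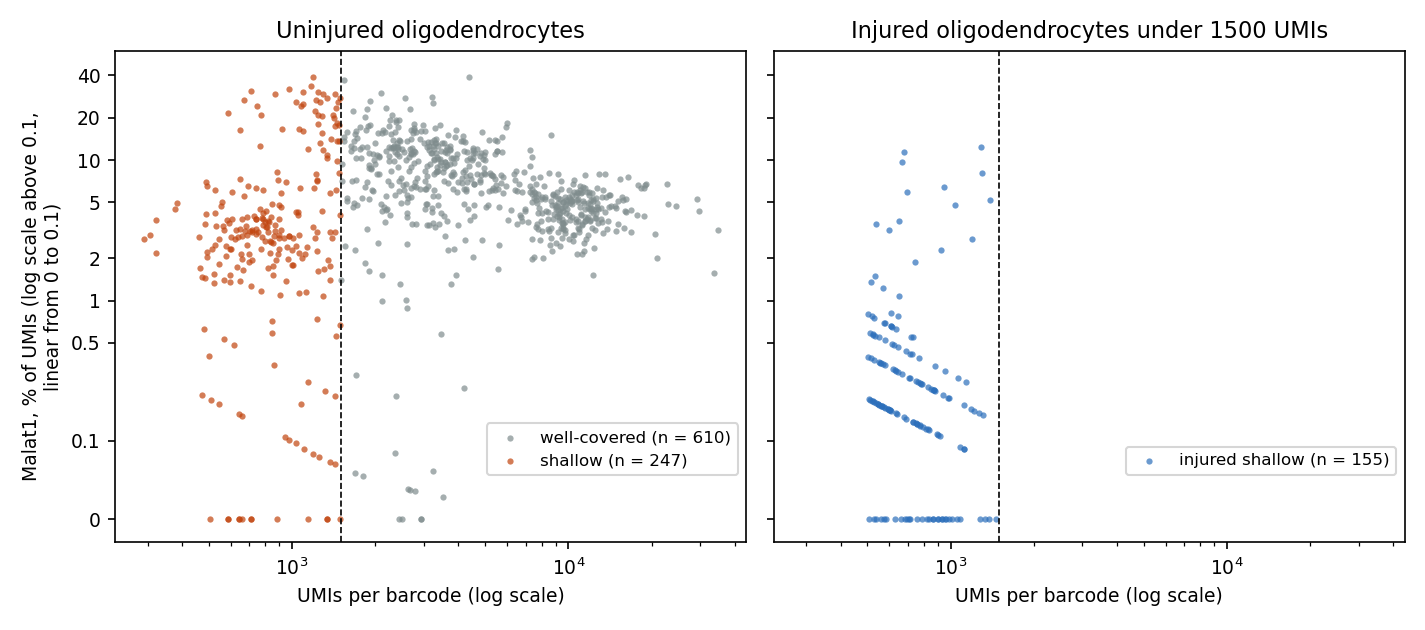
Malat1 share of UMIs (vertical axis, percent, logarithmic above 0.1 and linear below) against UMIs per barcode (horizontal axis, logarithmic), 1 point per barcode, with the 1500 UMI limit dashed. The 247 shallow uninjured barcodes (orange) form a group near 3%, 48 at 8% or more, of which 37 have 1000 UMIs or more, and 33 under 0.5%, whereas 118 of the 155 injured shallow barcodes (blue) lie under 0.5%.

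By depth band, Malat1 stood at 39064 CPM in barcodes under 750 UMIs, at 45997 CPM at 750 to under 1000 and at 100419 CPM at 1000 to under 1500. Above the limit it was 103342 CPM at 1500 to under 2500, 80426 CPM at 2500 to under 8000 and 45824 CPM at 8000 or more. Both the shallowest and the deepest barcodes were thus low in Malat1, and those on either side of the limit were high. A Malat1 share of 8% or more was seen in 11 of 157 barcodes under 1000 UMIs (7.01%), 37 of 90 at 1000 to under 1500 (41.1%) and 73 of 121 at 1500 to under 2500 (60.3%). The 20 deepest shallow barcodes (1424 to 1495 UMIs) had a median Malat1 share of 11.7% and the 20 shallowest of the others (1510 to 1693 UMIs) one of 10.5%. These neighbours of the limit had median shares of 8.72% and 6.32% for mitochondrially encoded mRNAs, 3.54% and 2.18% for ribosomal protein mRNAs and 0.0694% and 0.306% for Neat1. The median number of genes was 749 inside and 920 outside the limit.

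Neat1 was the RNA with the second largest ratio of the 1891 genes compared. It stood at 4434 CPM (4162 to 4720) in the shallow class and 865 CPM (837 to 895) in the well-covered class, a ratio of 5.12 (4.77 to 5.50). Per barcode its share was 0% to 3.40% (median 0.284%) in shallow and 0% to 1.38% (median 0.0663%) in well-covered barcodes, so the ranges overlapped. At 500 UMIs per barcode it was found in 64.9% of shallow (58.3% to 71.1%), 37.9% of well-covered (34.0% to 41.9%) and 5.36% of OPC barcodes. Unlike Malat1 it was highest at the bottom of the depth range, at 5421 CPM under 750 UMIs and 7111 CPM at 750 to under 1000, against 488 CPM at 8000 UMIs or more. Counted in UMIs per barcode, shallow barcodes had a mean of 4.0 UMIs of Neat1 and well-covered barcodes 5.57, while their mean totals were 903 and 6437 UMIs. Malat1 had means of 64.9 and 389 UMIs.

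The nuclear list held 16 RNAs, of which 14 were analysed and 5 had enough UMIs to be compared (at least 20 expected in the smaller class). In all, 17.5% of the 1891 compared genes were higher in the shallow class by 1.5-fold or more with an interval off 1, and 32.5% were lower. The median ratio of all compared genes was 0.821, a shift of -0.29 on the log2 scale, so a list near that ratio stood where most genes stood. Scaled to this median, 487 genes were higher and 330 lower, against 331 and 615 unscaled. The minimum was reckoned at the CPM of both classes together, and well-covered barcodes gave most of those UMIs. With no minimum, 1719 genes were higher and 861 lower, so the balance of directions depended on the minimum. The median, too, was taken under this minimum only. In the nuclear list 3 of 5 were higher and 0 lower, with a median ratio of 2.16. Kcnq1ot1, a noncoding RNA of an imprinted locus, had 587 CPM in the shallow class against 271 CPM, a ratio of 2.16 (1.79 to 2.60). Gm26917 had the largest ratio of all, 569 CPM against 81.0 CPM or 7.03 (5.68 to 8.66), with a mean of 0.514 UMIs per shallow and 0.521 per well-covered barcode. Gm42418, on the other hand, was level at 8640 and 8298 CPM (ratio 1.04, 0.994 to 1.09). Both lie side by side on chromosome 17 (39843013 to 39846341 and 39846958 to 39848788), in a stretch that resembles the ribosomal RNA precursor, so their counts may hold reads from ribosomal RNA and are uncertain. The other listed RNAs were rare: Tug1 had 18 UMIs, Snhg11 8, Ftx 4, Pvt1 3, and Meg3 and Miat 1 each over all 247 barcodes, while Xist, Tsix and Mirg had 0.

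Markers of most other cell types were rare in the shallow class, but most of their lists took a larger share of its UMIs than in the well-covered class. The list of newly formed oligodendrocytes was not rare, with 440 UMIs in 186 barcodes, 335 of these UMIs from Bcas1. Its summed ratio was 1.79 (1.62 to 1.98), and 1.36 (1.18 to 1.57) against 1500 to under 2500 UMIs alone. Its share reached 1.59% of a shallow and 0.619% of a well-covered barcode. The summed ratio was 5.46 for the neuronal list (2.28 to 11.9, from 9 UMIs), 4.52 for the erythroid list (2.90 to 6.84, from 29), 3.43 for the OPC list (2.07 to 5.45, from 22) and 2.21 for the immune list (1.34 to 3.50, from 21). It was 2.05 for the fibroblast and pericyte list (1.03 to 3.74, from 12), 1.74 for the astrocyte list (1.33 to 2.22, from 69), 1.21 for the endothelial list (0.474 to 2.58, from 7) and 0.539 for the Schwann cell list (0.440 to 0.654, from 105). Against barcodes of 1500 to under 2500 UMIs alone, the OPC list was at 2.70 (1.20 to 6.66), the immune list at 3.31 (1.36 to 9.23), the astrocyte list at 2.01 (1.33 to 3.06) and the erythroid list at 2.00 (1.05 to 3.95). In the shallow class 5 of 8 OPC, 6 of 12 immune, 8 of 10 astrocyte and 5 of 8 endothelial markers had a UMI. Those with 0 UMIs included Cspg4 of OPCs, Ptprc and Aif1 of immune cells, Aldh1l1 of astrocytes and Cdh5 of endothelial cells. A barcode's summed share reached at most 0.527% for the OPC, 0.423% for the astrocyte, 0.417% for the immune and 0.215% for the neuronal list, against 0.159%, 0.589%, 0.283% and 0.0587% in well-covered barcodes. The part of these RNAs in the ratios given here was not tested.

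Among coding genes, the 8 next largest ratios belonged to Kif5a, Ints6l, Myo9a, Adam11, Ddx17, Ppp1cc, Nfat5 and Snrnp70. Kif5a encodes a kinesin heavy chain that moves cargo along microtubules. It had 623 CPM (524 to 736) in the shallow class and 161 CPM (149 to 174) in the well-covered class, a ratio of 3.87 (3.19 to 4.65). Ddx17, an RNA helicase of the nucleus, stood at 910 against 245 CPM (ratio 3.72, 3.18 to 4.34), and Snrnp70, a protein of the U1 splicing particle, at 924 against 282 CPM (3.28, 2.81 to 3.81). Nfat5, the transcription factor of osmotic stress, had a ratio of 3.41 (2.73 to 4.23), and Ppp1cc, a catalytic subunit of protein phosphatase 1, one of 3.50 (2.99 to 4.08). The 8 ratios ran from 3.28 to 3.87. Bcas1, a marker of newly formed oligodendrocytes (NFOs), was also higher at 1502 against 493 CPM (3.05, 2.71 to 3.43), whereas Enpp6, another NFO marker, was not called at 404 against 531 CPM (0.760).

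The 10 smallest ratios, from 0.133 to 0.242, were those of Gm26825, Imp3, Cstb, Mgst3, Adh5, Ahsa1, Snrpd3, Hadh, Rnf5 and Kif1bp. They rested on 3 to 9 UMIs in the shallow class. Mgst3, a membrane-bound glutathione transferase, had 8 UMIs or 35.9 CPM against 184 CPM, which is 5.13-fold lower (2.59 to 11.9). Adh5, which clears formaldehyde, had 9 UMIs or 40.4 CPM against 200 CPM, 4.95-fold lower (2.59 to 10.9). Gm26825, a noncoding RNA on chromosome 5 (5781530 to 5783636), had 3 UMIs in the shallow class against 396, a ratio of 0.133 (0.0274 to 0.393).

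Higher and lower genes differed in the size of their annotated gene. The 331 higher genes had a median span of 63.0 kb on the genome, 5.61 kb of exon sequence and 15 exons. The 615 lower genes had medians of 10.9 kb, 1.86 kb and 5 exons, and all compared genes 23.1 kb, 3.18 kb and 7 exons. With genes ranked by span and split into 4 sets of like size, from short to long, the median ratio was 0.638, 0.686, 0.937 and 1.25. Across 1881 genes, which share libraries and are not independent replicates, Spearman's rho of the ratio with exon length was 0.61 and with span 0.46. Against well-covered barcodes thinned to the depths of the shallow ones, rho with exon length was 0.48 and the 4 sets ran from 0.787 to 1.23. Against barcodes of 1500 to under 2500 UMIs alone, rho was -0.17, so the relation with gene length did not hold against the nearest depths.

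**Figure D2:**
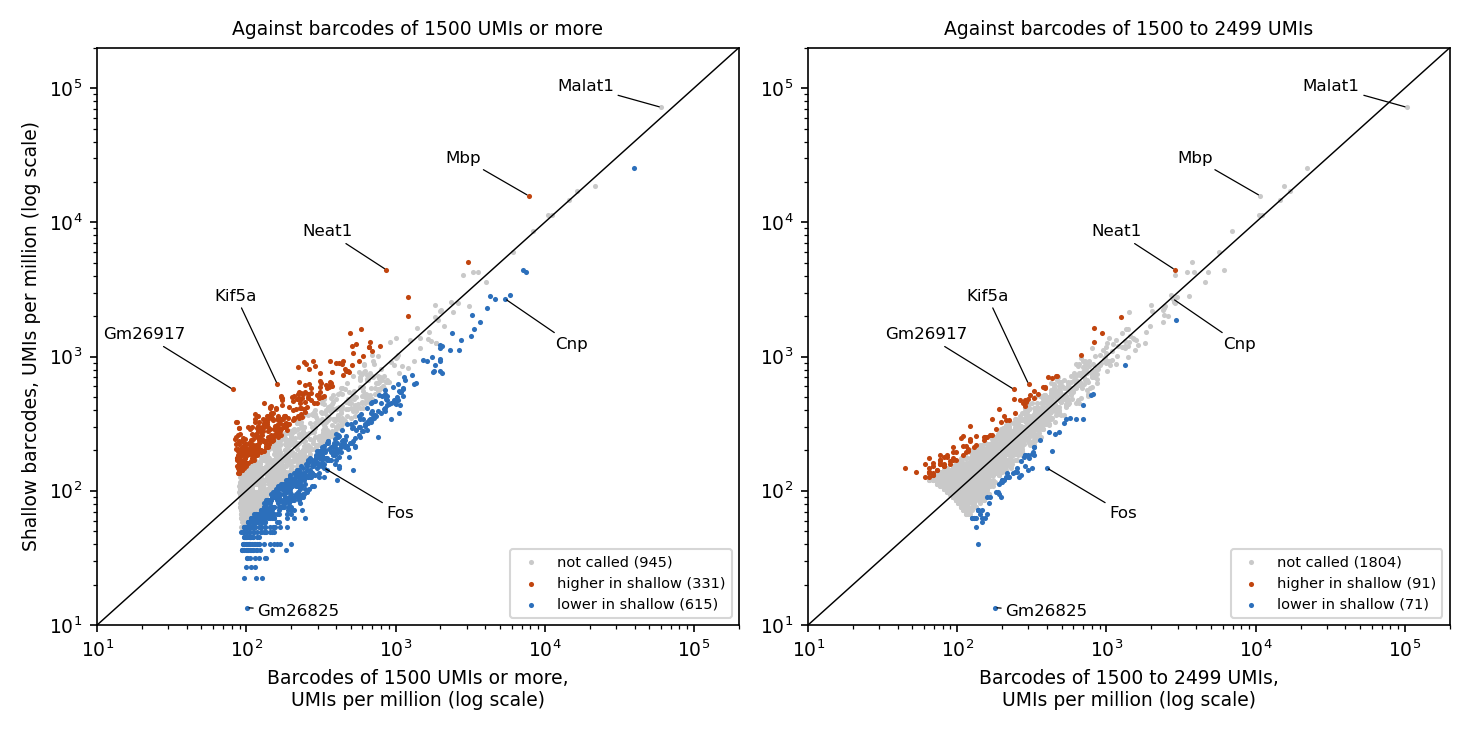
Summed UMIs, in CPM, in shallow barcodes (vertical axis) against well-covered barcodes of 1500 UMIs or more (left) and those of 1500 to under 2500 UMIs (right), 1 point per compared gene, both axes logarithmic, with the line of equal levels. On the left 331 genes are called higher (orange) and 615 lower (blue); on the right the points close in on the line and 91 and 71 are called.

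That nearest comparison set the shallow class against 121 barcodes of 1500 to under 2500 UMIs and was added after seeing the data. Of 1966 compared genes 4.63% were higher and 3.61% lower, and the median ratio was 1.02. Only 26 of the 331 higher and 33 of the 615 lower genes were called again in the same direction. Neat1 was still higher at 1.54-fold (1.40 to 1.70), Kif5a at 2.08-fold (1.55 to 2.79), Gm26917 at 2.38-fold (1.73 to 3.30) and Bcas1 at 1.62-fold (1.36 to 1.92). For Neat1 this did not hold right beside the limit, where the 20 deepest shallow barcodes had a median share of 0.0694%. The 20 shallowest of the others had one of 0.306%. Ddx17 had a ratio of 1.22 (0.993 to 1.5) and Snrnp70 one of 1.29 (1.05 to 1.59), and neither was called. Malat1 had a ratio of 0.696 (0.682 to 0.710), which is a lower level in the shallow class but not past 1.5-fold. Fos, an immediate early transcription factor, was lower at 148 against 398 CPM, a ratio of 0.372 (0.243 to 0.557).

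In the myelin list, 1 of 24 genes was higher and 14 were lower in the shallow than in the well-covered class. Of all compared genes 17.5% were higher and 32.5% lower. The median ratio of the list was 0.625, and the summed level was 79676 against 106072 CPM (0.751, 0.740 to 0.763). Mbp was the gene that was higher. Its share ran from 0.0942% to 6.06% (median 1.38%) in shallow and from 0.226% to 4.91% (median 0.752%) in well-covered barcodes. The summed level was 15751 CPM (15235 to 16281) against 7811 CPM (7724 to 7899), a ratio of 2.02 (1.95 to 2.09). It was lower in each deeper band above the limit, with 10726, 7867 and 7488 CPM, and stood between 14922 and 17927 CPM in the 3 bands below it. Against 1500 to under 2500 UMIs alone the ratio was 1.47 (1.40 to 1.55), just under 1.5-fold. Mobp, whose mRNA is likewise found in oligodendrocyte processes, had 4040 against 2850 CPM (1.42, 1.32 to 1.52), which was not past 1.5-fold.

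Most myelin genes went the opposite way. Cnp, an enzyme of non-compact myelin, had 2695 against 5412 CPM (ratio 0.498, 0.458 to 0.540). Mal, a proteolipid of myelin membranes, had 4242 against 7488 CPM (0.566), and Cldn11, the tight junction protein of the sheath, 2668 against 4674 CPM (0.571). Ermn, a cytoskeletal protein of mature oligodendrocytes, had 951 against 2000 CPM (0.475), and Cryab, a small heat shock protein, had the smallest ratio of the list, 762 against 1776 CPM (0.429, 0.366 to 0.50). Mog, Opalin, Pllp, Trf, Car2, Apod, Ptgds and Gal3st1 were also lower, with ratios from 0.481 to 0.626.

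Not every myelin gene was lower. Mag had 3569 against 4070 CPM (0.877, 0.816 to 0.942), Ugt8a, which makes galactosylceramide, 1381 against 1459 CPM (0.946), and Fa2h, which hydroxylates its fatty acids, 812 against 795 CPM (1.02). Aspa, which cleaves N-acetylaspartate, had a ratio of 1.02 and Tspan2 of 0.910, with intervals that held 1. Myrf, the transcription factor that drives myelin genes, had 520 against 380 CPM (1.37, 1.12 to 1.66), and Gjb1 and Qdpr had ratios of 0.727 and 0.794, none of them called. Against 1500 to under 2500 UMIs alone, 0 of the 24 myelin genes were called in either direction, and the summed level was 1.06-fold higher (1.03 to 1.08). Cnp was then level at 0.968 (0.866 to 1.08).

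**Figure D3:**
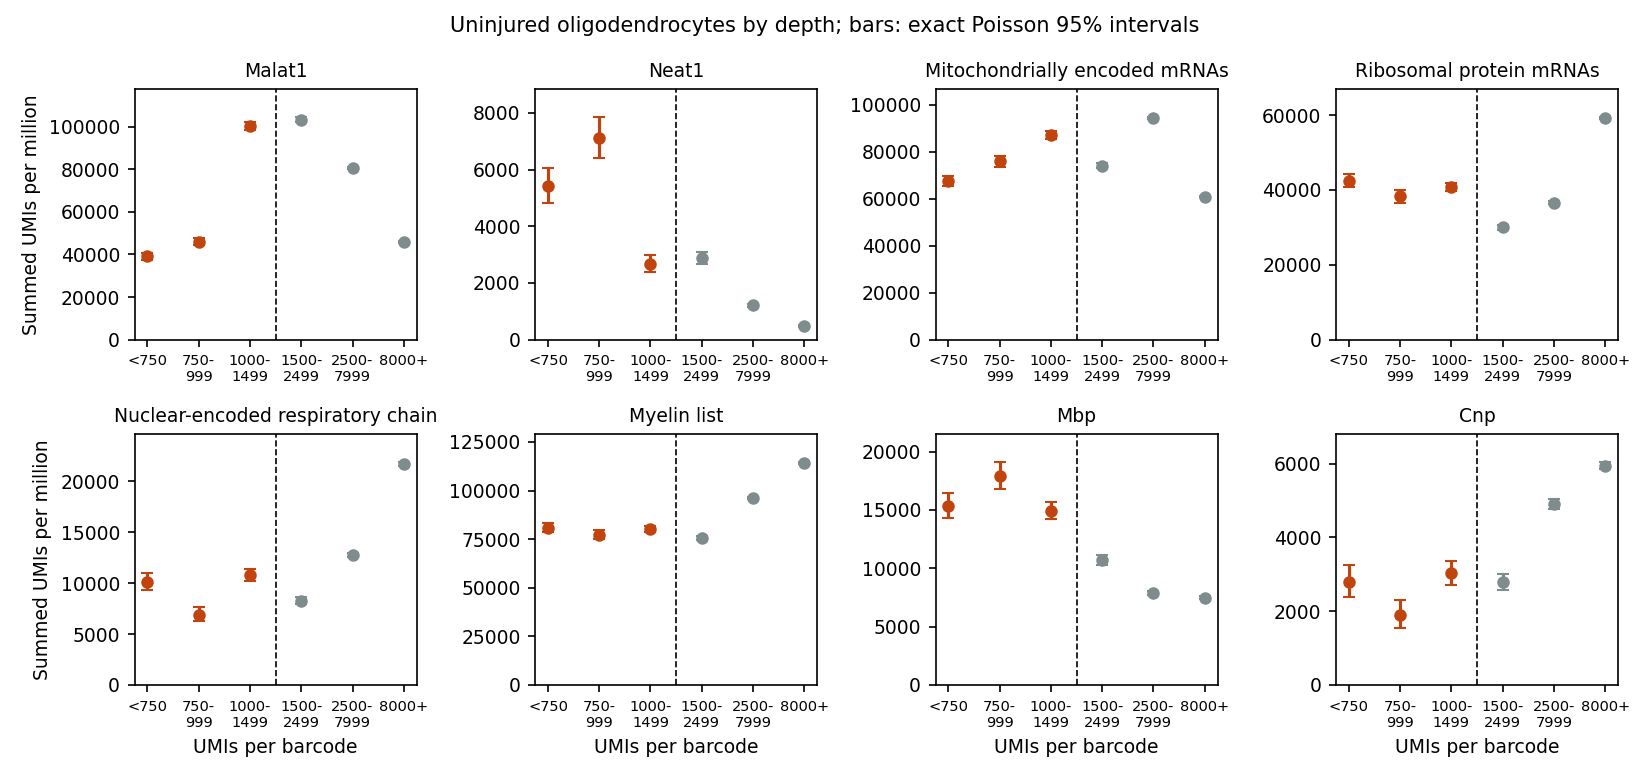
Summed UMIs in CPM (vertical axes, from 0) in 6 bands of UMIs per barcode (horizontal axes) for 8 genes and lists in uninjured oligodendrocytes, with exact Poisson 95% intervals. The shallow bands are orange, the well-covered bands grey and the limit is dashed. Malat1 peaks on both sides of the limit, Neat1 is highest in the bands under 1000 UMIs and Mbp in the shallow bands. Cnp, the myelin list, ribosomal protein and respiratory chain mRNAs are highest at 8000 UMIs or more.

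Mitochondrially encoded mRNAs specify subunits of the respiratory chain. Their share of UMIs was 0.274% to 19.9% (median 6.54%) in shallow and 0.413% to 19.8% (median 6.57%) in well-covered barcodes, and the study kept only barcodes with at most 20% from mitochondria, which caps the upper end. The summed level was 79550 against 72339 CPM (ratio 1.10, 1.08 to 1.12). The ratio was 0.956 with equal weight per barcode, 0.984 with the limit at 1000 UMIs, 0.874 against well-covered barcodes under 8000 UMIs and 0.986 after thinning, so no direction held. A share over 10% was found in 80 of 247 shallow (32.4%, 26.6% to 38.6%) and 161 of 610 well-covered barcodes (26.4%, 22.9% to 30.1%). Of 12 mitochondrial genes compared 3 were higher and 0 lower, beside 17.5% higher and 32.5% lower of all compared genes. The 3 were mt-Nd1 at 5089 against 3063 CPM (1.66, 1.56 to 1.77), mt-Nd5 at 1287 against 677 CPM (1.90, 1.68 to 2.15) and mt-Atp8 at 1004 against 608 CPM (1.65, 1.43 to 1.90). The most abundant, mt-Atp6, mt-Co3, mt-Co1 and mt-Co2, had ratios from 1.02 to 1.09. The ratio was 1.29 for mt-Nd2, 1.19 for mt-Nd4, 1.43 for mt-Nd4l, 1.09 for mt-Nd3 and 0.986 for mt-Cytb. mt-Nd6 had 7 UMIs and was not compared. Against 1500 to under 2500 UMIs alone only mt-Nd5 of the 12 was called, as higher, beside 4.63% higher of all compared genes.

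Ribosomal protein mRNAs made up 0.658% to 13.8% of UMIs (median 3.48%) in shallow and 0.455% to 16.9% (median 4.11%) in well-covered barcodes. In summed UMIs they stood at 40591 against 50234 CPM, a ratio of 0.808 (0.791 to 0.825) that lay beside the median of all genes. Of 82 compared, 0 were higher and 17 lower, beside 17.5% and 32.5% of all compared genes. The most abundant, Rps29 and Rplp1, were level or slightly higher, at 1959 against 1849 CPM (1.06) and 1641 against 1383 CPM (1.19). The direction turned against lower depths. The ratio was 1.143 against well-covered barcodes under 8000 UMIs and 1.35 (1.31 to 1.40) against 1500 to under 2500 UMIs alone. There 21 of 80 were higher and 0 lower, beside 4.63% and 3.61% of all compared genes. Rpl12 was among the higher ones with 57 UMIs against 27 (2.33, 1.45 to 3.84).

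Nuclear-encoded subunits of the respiratory chain and ATP synthase, in contrast, were well below the median gene. Their share was 0% to 4.53% (median 0.658%) in shallow and 0.105% to 4.53% (median 1.46%) in well-covered barcodes. The summed level was 9694 against 18027 CPM (ratio 0.538, 0.515 to 0.561). Of 69 compared, 0 were higher and 58 lower, beside 17.5% and 32.5% of all compared genes. The 4 with most UMIs, Cox4i1, Cox7c, Cox6c and Cox8a, were 1.76-fold to 2.05-fold lower. Their products assemble with those of the mitochondrially encoded mRNAs, whose summed ratio was given above. The list stayed lower in 8 of 9 alternatives (0.398 to 0.808) and was higher only against 1500 to under 2500 UMIs alone, at 1.17 (1.10 to 1.24).

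The shallow barcodes differed widely among themselves. They were divided by Malat1 share at 0.5% and 8%, limits chosen after seeing the data, so levels in the 3 ranges are descriptions. There were 33 barcodes under 0.5%, of which 13 had 0 UMIs of Malat1, 166 from 0.5% to 8%, and 48 at 8% or more. Few lay near the limits, 11 from 0.25% to 1% and 18 from 6% to 10%. The well-covered class had 15, 385 and 210 barcodes in these ranges, or 2.46%, 63.1% and 34.4%, against 13.4%, 67.2% and 19.4% of the shallow class. At 500 UMIs the 3 shallow ranges had medians of 329, 375 and 310.5 genes.

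The barcodes under 0.5% Malat1 were low in Neat1, Kcnq1ot1, Ddx17 and Snrnp70 and high in ribosomal protein and respiratory chain mRNAs. They held 4 UMIs of Neat1, 1 of Kcnq1ot1, 3 of Ddx17 and 0 of Snrnp70 in 30310 UMIs, where the middle range held 863, 108, 175 and 158 in 136043. Neat1 thus stood at 132 CPM (36.0 to 338) against 6344 CPM (5927 to 6781). Gm42418, also on the nuclear list, went the other way and was highest in this range, at 11811 CPM (10619 to 13100) against 8997 CPM in the middle range (1.31-fold, 1.16 to 1.48). Ribosomal protein mRNAs reached 82910 CPM against 36540 in the middle range (2.27-fold, 2.16 to 2.38), nuclear-encoded respiratory chain mRNAs 25668 against 6932 CPM (3.70-fold, 3.36 to 4.08) and mitochondrially encoded mRNAs 120158 against 80533 CPM (1.49-fold, 1.44 to 1.55). Cnp stood at 7588 CPM (6639 to 8635), above the well-covered class, and Mbp at 18608 CPM (17104 to 20209). Mbp was found in all 33 of these barcodes and Mag in 24.

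The middle range held the highest levels of Neat1 and of several genes with large ratios to the well-covered class. Kcnq1ot1 stood there at 794 CPM, Gm26917 at 706 CPM, Ddx17 at 1286 CPM and Snrnp70 at 1161 CPM, each above its level in the other ranges, although the intervals of Gm26917 and Snrnp70 overlapped those at 8% or more. Adam11 had 1198 CPM (1021 to 1397), against 388 CPM in barcodes at 8% or more. Cnp was lowest here at 1786 CPM (1569 to 2026). In the 48 barcodes at 8% or more, Malat1 took 207072 CPM, Mag was highest at 5981 CPM (5362 to 6653), and Trf, the iron carrier transferrin, stood at 7781 CPM (7072 to 8542). Mitochondrially encoded mRNAs were lowest there at 55473 CPM and ribosomal protein mRNAs at 27684 CPM. Over the 247 barcodes Spearman's rho of the Malat1 share was -0.47 with the ribosomal protein share, -0.44 with the myelin share and -0.41 with the mitochondrial share (Pearson's r -0.31, -0.32 and -0.29). These are shares of 1 total, which lowers such values by construction.

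**Figure D4:**
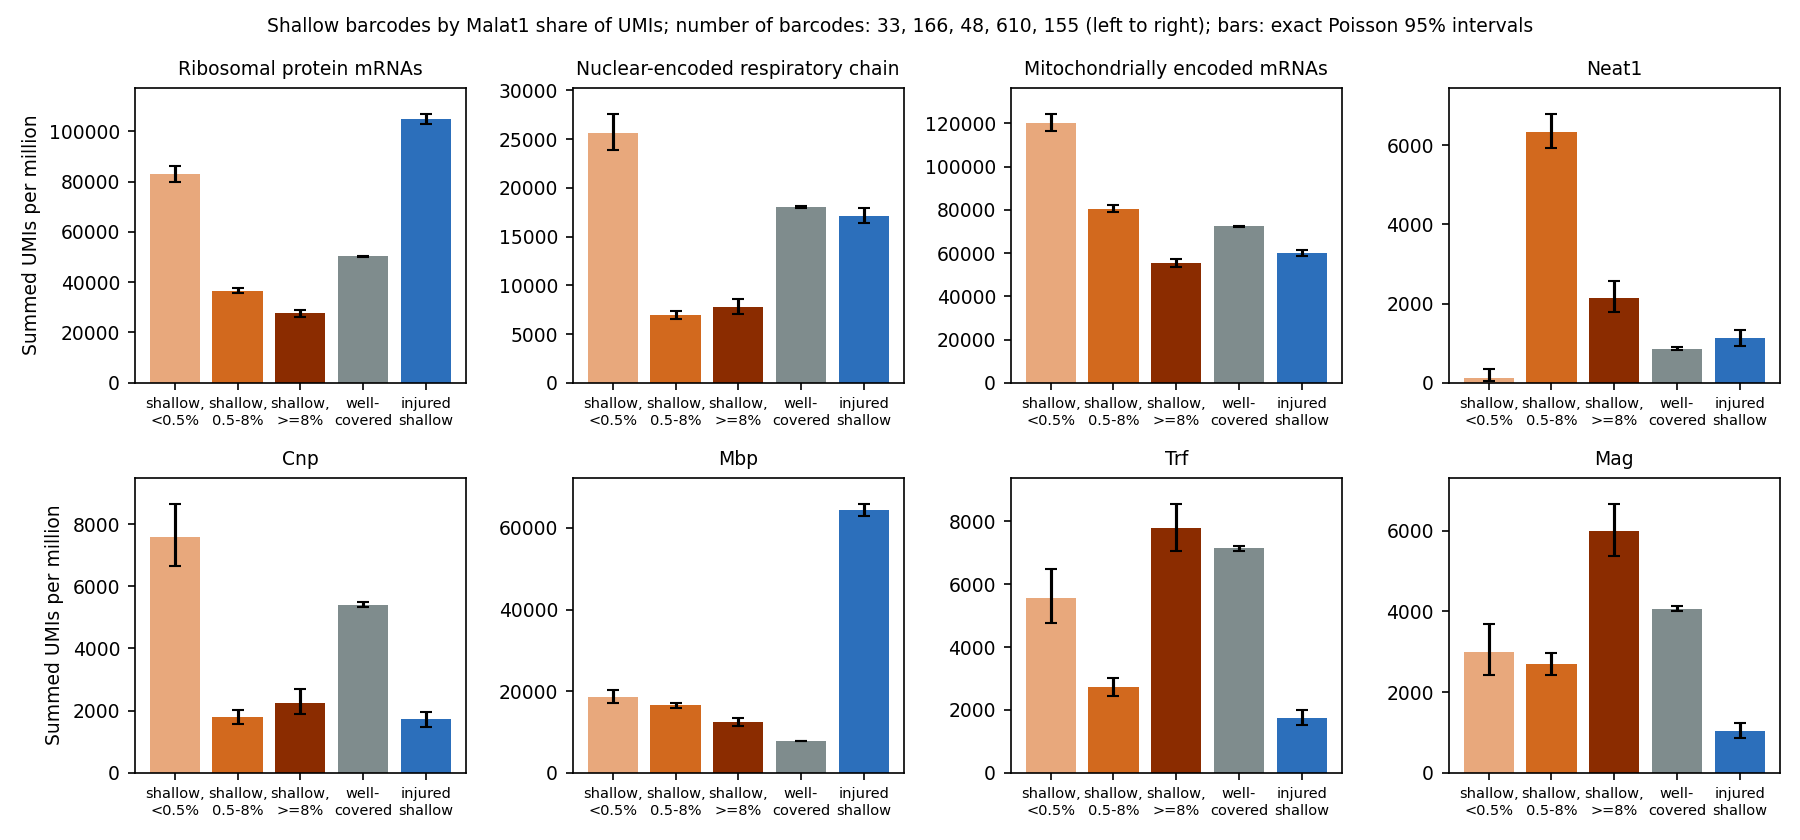
Summed UMIs in CPM (vertical axes, from 0) of 8 genes and lists in the shallow barcodes under 0.5%, from 0.5% to 8% and at 8% or more Malat1 (33, 166 and 48 barcodes), in the 610 well-covered and in the 155 injured shallow barcodes, with exact Poisson 95% intervals. The range under 0.5% is high in ribosomal protein, respiratory chain and mitochondrial mRNAs and Cnp, Neat1 peaks in the middle range, and Mag and Trf peak at 8% or more among the shallow ranges.

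Without the 33 barcodes under 0.5%, the ratio to the well-covered class was 1.38 for Malat1, 5.91 for Neat1, 1.01 for mitochondrially encoded mRNAs, 0.676 for ribosomal protein mRNAs, 0.398 for the nuclear-encoded respiratory chain and 0.356 for Cnp. Mbp stayed at 1.96. Ribosomal protein, respiratory chain and Cnp RNA thus moved down without these 33 barcodes, and Mbp little. The rise of Malat1 was built in, since barcodes were left out by their Malat1 share. The 15 well-covered barcodes under 0.5% were kept.

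Shallow oligodendrocytes of the injured library were of another make. Of 155, 118 (76.1%, 68.6% to 82.6%) were under 0.5% Malat1 and 4 at 8% or more. Malat1 stood at 8523 CPM there, so the uninjured shallow class was 8.44-fold higher (7.91 to 9.0), and Neat1 at 1121 CPM, 3.96-fold (3.30 to 4.78). These ratios set 1 library against 1, so the library and the injury cannot be told apart. In all, 44.6% of 828 compared genes were higher and 32.2% lower in the uninjured class, with a median ratio of 1.3. Ribosomal protein mRNAs stood at 40591 CPM in uninjured and 104832 CPM in injured shallow barcodes, with 0 of 79 genes higher and 73 lower. Gm42418 was 9.05-fold lower in the uninjured class (8640 against 78193 CPM), a gene whose counts are uncertain for the reason given above. Mitochondrially encoded mRNAs were 1.32-fold higher (1.29 to 1.36), near the median ratio of all genes, with 4 of 12 genes higher and 2 lower. The ratio was 0.754 with a stricter filter (500 genes or more, mitochondrial share up to 10%), which itself limits these mRNAs.

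The summed myelin list stood at 79676 CPM in uninjured and 116046 CPM in injured shallow barcodes, a ratio of 0.687 (0.671 to 0.702), while the median ratio of its genes was 1.62 and thus had the opposite sign on a log scale. Of the 24 myelin genes, 13 were higher and 5 lower in the uninjured class, beside the 44.6% and 32.2% of all compared genes. Mbp had 15751 CPM in uninjured and 64314 CPM in injured shallow barcodes (ratio 0.245, 0.235 to 0.255), Mobp 4040 and 9474 CPM (0.426), while Mag had 3569 and 1044 CPM (3.42, 2.82 to 4.17) and Myrf 520 and 34.0 CPM (15.3, 5.82 to 57.2). The share of Mbp ran from 0% to 30.1% (median 2.82%) in the injured barcodes, so a part of them held far more than any uninjured shallow barcode, whose highest share was 6.06%. The transcripts listed as carried into processes, Mbp included, were lower in the uninjured class for 8 of 8 genes compared, Fth1, the ferritin heavy chain, at 18805 against 71130 CPM (0.264, 0.255 to 0.274) and S100b at 466 against 5391 CPM (0.0865). The 10 largest ratios were those of Msmo1, Fcho1, Unc13c, Insig1, Krit1, Fdps, Zdhhc20, Ppp1cc, Carns1 and Tmcc1, and the 10 smallest those of Spp1, Lyz2, Apoe, Ctss, Sparc, S100b, Gm42418, S100a1, Mt1 and H2-D1. Msmo1, a sterol oxidase, had 78 UMIs in uninjured and 0 in injured shallow barcodes, which is at least 13.7-fold higher with a floor of 3 UMIs over the class. Spp1, which encodes osteopontin, had 0 and 71 UMIs, at least 44.8-fold lower. Apoe, a lipid carrier, had 193 and 7929 CPM (41.1-fold lower). The immune marker list had 21 UMIs in uninjured shallow barcodes (94.2 CPM) and 367 in injured ones (3116 CPM). The summed immune share of a barcode ran from 0% to 0.417% and from 0% to 2.77%. In the uninjured class 6 of 12 markers had a UMI and Ptprc, Aif1, C1qc, Cx3cr1, Tyrobp and Cd74 had 0, and in the injured class all 12 had a UMI. The part of these markers in the ratios was not tested.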

How the data were processed

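Single cells of optic nerve were profiled with 10x v2 chemistry, in 1 library per condition. Per the study's methods and the submitters' processing notes, the authors used bcl2fastq 2.17.1.14, Cell Ranger 1.3 with the mm10 genome and Seurat 4.0.3, kept barcodes with at least 200 genes, at most 150000 UMIs and at most 20% mitochondrial content, took equal numbers per library and assigned the types. The annotation release is not given in the sources used here. The deposited values are the natural log of 1 plus 10000 times a gene's UMIs over the barcode's total, for lineage barcodes only. Out of the log, each barcode's values were whole multiples of its smallest one (tolerance 0.001), which gave UMIs back.

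UMIs were summed over the barcodes of a class and given per 1000000 UMIs of the class (CPM), since barcodes are not replicates. A gene was compared where at least 20 UMIs were expected in the smaller class at the CPM of both classes together. This expectation followed mainly the class with more UMIs, so a gene high only in the smaller class could be left out. A gene was called where the ratio passed 1.5-fold with an interval off 1. A count of 0 was bounded with a floor of 3 UMIs over the class. For detection and numbers of genes, thinning drew 500 UMIs per barcode. For ratios after thinning, each well-covered barcode was instead drawn to a UMI total picked at random from those of the shallow barcodes. Doublets were not called. The ratios and calls were tested on simulated class sums with counting error only, which lack the spread between barcodes. Gene spans came from GENCODE vM21, which matched 30452 of 31053 gene names, and rows whose name occurs more than once were left out of gene comparisons. Genes named are all of the nuclear, mitochondrial and myelin lists, the 10 largest and 10 smallest ratios, and in other lists those called or with most UMIs; Fos, Rpl12 and Adam11 by Malat1 range were named after their values were seen. Some genes of these lists are not reported here, though they count in list sums. The members and lists were chosen with earlier results of these data known. Alternatives changed the UMI limit, the well-covered class, the filter, the totals, the averaging, the depth, the count minimum and the scaling, and 3 were added after seeing the data. Python 3.11.15, numpy 2.4.6, pandas 2.3.3, scipy 1.17.1 and matplotlib 3.10.9 were used.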

Additional observations from a re-analysis of the deposited data

How the results depend on the processing

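No paired analysis was possible because each condition has 1 library, and there are no replicates to leave out. Depth limits the shallow sums, and the well-covered sum leans on its deepest barcodes. Ratios below are of summed UMIs, shallow over well-covered.

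Malat1 (1.191) was 0.6901 with the limit at 1000 UMIs, 1.372 at 2000, 0.8537 against well-covered barcodes under 8000 UMIs, 1.775 with at least 500 genes and up to 10% mitochondrial UMIs, 0.8218 as a mean of shares, 0.961 with thinning, 1.375 without barcodes under 0.5% Malat1 and 0.6958 against 1500 to under 2500 UMIs. In those settings, except 2000 UMIs, mitochondrially encoded RNA was 0.9839, 0.8742, 0.6874, 0.9562, 0.9859, 1.011 and 1.075. Ribosomal protein RNA was 0.7273 at 2000 UMIs, then 1.143, 0.6027, 0.9785, 0.9782, 0.6756 and 1.355 from the setting under 8000 UMIs on, and 0.8259 with totals without Malat1 and mitochondrial genes. Myelin RNA was 0.7322, 0.8582, 0.6607, 0.8332, 0.8257, 0.719, 1.057 and 0.7677 in the same order. The direction thus turned for Malat1 in 5 of 8 settings printed. Leaving out shallow barcodes under 0.5% Malat1 could only raise the Malat1 ratio. Mag was 1.038 under the stricter filter, and nuclear-encoded respiratory chain RNA (1.168) turned against 1500 to under 2500 UMIs. Neat1, Mbp, Kif5a and Bcas1 kept their direction in 9 of 9 alternatives, and Cnp was level (0.968, 0.866 to 1.08) against 1500 to under 2500 UMIs.

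The 331 higher genes became 134 at 1000 UMIs, 578 at 2000, 117 under the stricter filter, 86 with a minimum of 50 expected UMIs, 1719 with none and 91 against 1500 to under 2500 UMIs. The 615 lower genes became 333 at 1000 UMIs, 234 under 8000, 313 with thinning and 250 with the minimum of 50. They were 861 with no minimum, 330 scaled by the median ratio and 71 against 1500 to under 2500 UMIs. With no minimum, scaled, under 8000 or against 1500 to under 2500 UMIs, more genes were higher than lower. In the main setting more were lower. For uninjured over injured shallow barcodes, a limit of 1000 UMIs gave 6.862 for Malat1, 1.265 for mitochondrial, 0.3584 for ribosomal protein and 0.6532 for myelin RNA, and the stricter filter gave 0.7535 for mitochondrial, 0.4211 for ribosomal protein and 0.9191 for myelin RNA. That filter itself limits mitochondrial RNA, and it left 105 shallow, 449 well-covered and 30 injured shallow barcodes. The cause of these shifts was not tested.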

Other observations

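The counts in this paragraph stand beside the 17.5% higher and 32.5% lower of all 1891 compared genes. Heat shock genes were lower in the shallow than in the well-covered class, with 0 of 7 compared genes higher and 6 lower and a median ratio of 0.563. Hspa8, a constitutive chaperone, was 2.31-fold lower (1.89 to 2.85) and Hsp90ab1, a form of HSP90, 1.73-fold lower (1.53 to 1.97). Immediate early genes had 0 of 4 higher and 3 lower: Fos was 2.24-fold lower, Jund 2.02-fold and Jun 1.57-fold, while Junb had a ratio of 1.27 (0.833 to 1.87). Of 16 cholesterol synthesis genes 1 was higher and 5 were lower, with a median ratio of 0.799, near the 0.821 of all compared genes. Msmo1 was 2.05-fold lower (1.64 to 2.60) and Fdps, which makes farnesyl pyrophosphate, 1.98-fold lower (1.57 to 2.53), whereas Srebf2, the factor that drives the pathway, had a ratio of 1.64 (1.27 to 2.07). Against 1500 to under 2500 UMIs, the summed ratio was 0.866 for heat shock, 0.595 for immediate early and 0.961 for cholesterol genes. Of 6 transcripts listed as carried into processes 2 were higher and 0 lower, Mbp and Map4 (1.73, 1.33 to 2.21).

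On the astrocyte list, 8 of 10 markers were found in the shallow class, with Slc1a3, a glutamate transporter, higher at 1.75 (1.19 to 2.49). On the Schwann cell list, Pmp22 was 3.63-fold lower (2.56 to 5.32), and Prx had 0 UMIs. A stress and death list of 13 genes had 91 UMIs and a summed ratio of 0.946 (0.757 to 1.17), with 0 of 1 compared gene called.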
